A study of Saccharomyces cerevisiae with 10 samples.

Results

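Sulfate assimilation and methionine synthesis in budding yeast was followed through a heat shock with 10 genes of the pathway, found by the name of their open reading frame (ORF): MET3 (YJR010W), MET14 (YKL001C), MET16 (YPR167C), MET5 (YJR137C), MET10 (YFR030W), MET17 (YLR303W), MET6 (YER091C), SAM1 (YLR180W), SAM2 (YDR502C) and CYS3 (YAL012W). The genes were chosen for their role in the pathway, with earlier results of these data known. The value table of the arrays holds 5983 ORFs and a row for 9 of these 10 genes, and MET17 was not analysed here. MET10 lacks a value on the array of the deletion strain at 0 min, so 8 of the 10 genes were among the 5734 ORFs tested.

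The study compared a strain of Saccharomyces cerevisiae lacking the protein kinase gene KIN82 with strain DBY8778, taken as the wild type. The 10 arrays hold total RNA from 1 sample of each strain at 0, 5, 15, 30 and 60 min after the shift, and an RNA named only as reference in the other channel. The labels do not give the temperature, the medium with its sulfur source, other alleles of the strains and the makeup of the reference. Repeat stands in the titles of the deletion arrays taken at 0 and 60 min, and the wild-type titles name a heat shock numbered 2, so strain and time course of sampling cannot be told apart. KIN82 itself was not analysed here, and the deletion was therefore not checked.

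Yeast takes up sulfate, activates it with ATP and reduces it to sulfide in steps that consume much NADPH. Sulfide is joined to a carbon chain to give homocysteine, from which methionine is made by methylation and cysteine by transsulfuration. Methionine and ATP are then turned into S-adenosylmethionine (SAM), the methyl donor of the cell, and its use returns homocysteine. Many genes of the pathway are activated by the transcription factor Met4, which acts with Cbf1, Met28, Met31 and Met32 and is held in check by the ubiquitin ligase subunit Met30 when methionine is plentiful.

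Values are log2 ratios over the reference, centred on each array's median. Each of the 10 arrays held a value for 5844 to 5949 ORFs, and correlations between arrays over all ORFs lay between 0.36 and 0.93. The ratio most likely runs as sample over reference, because 27 of 27 chaperone genes in the deletion and 25 of 26 in the wild type were higher at 15 min than at 0 min. The logarithm was read as base 2, although no label states its base. The arrays differed in spread, with standard deviations over all ORFs of 0.66 and 0.62 at 0 min in the deletion and the wild type and of 1.14 and 1.27 at 15 min. A change is said to have passed where limma gave an adjusted p under 0.05 over all ORFs tested. With 1 array for each strain and time, errors rest on departures from additive strain and time effects.

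SAM1, MET6 and SAM2, at the methionine and SAM end of the pathway, were lower at 15 min than at 0 min, beside 14.1% of ORFs. SAM1 fell 14.7-fold (log2 change -3.88, and -2.73 after quantile normalization), MET6 fell 3.82-fold and SAM2 fell 2.71-fold. Without the deletion array at 15 min the log2 changes were -1.10 for MET6 and -1.13 for SAM2, and the calls of both rested on that array. Within the strains MET6 changed by -3.03 in the deletion and -0.84 in the wild type, and SAM2 by -1.59 and -1.29. In the wild type MET6 was lowest at 5 min. All 3 genes were higher again at 60 min than at 15 min, beside 12.1% of ORFs higher and 8.56% lower. This rise and the fall at 15 min share the 15 min arrays and are not separate results. The rise of MET6 was 1.98, and 1.14 without the deletion array at 15 min. None of the 4 tested sulfate reduction genes passed in any comparison with 0 min, beside 14.1% of ORFs lower and 9.5% higher at 15 min. All 4 of their estimates at 15 min lay below 0, and with 4 genes an absence of calls does not set them apart. In the comparison of strains 1 of 8 members passed, MET3, 1.65-fold lower in the deletion, beside 5.35% of ORFs lower and 6.59% higher. That call stood close to the threshold and was kept in 8 of 20 alternatives.

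**Figure D1:**
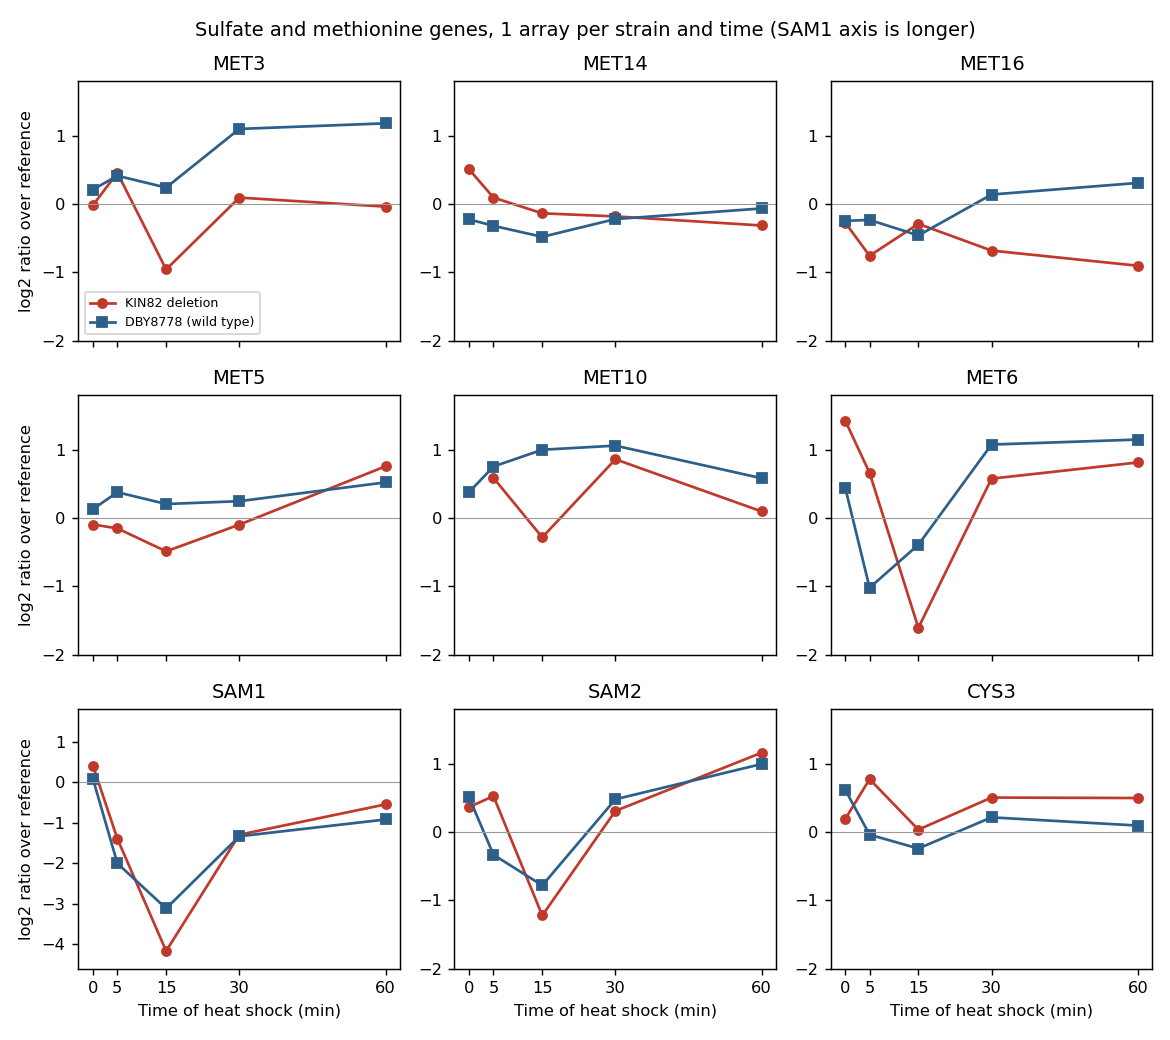
Log2 ratio over the reference (vertical axis, array-centred) against time of heat shock in minutes for the 9 measured genes, with circles for the KIN82 deletion and squares for the wild type, each point 1 array. SAM1 reaches -4.16 in the deletion and -3.11 in the wild type at 15 min on a longer axis than the other genes, and the MET10 line of the deletion begins at 5 min because its 0 min value is missing.

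Sulfate activation begins with MET3, ATP sulfurylase, which makes adenosine phosphosulfate. In the deletion MET3 lay at -0.02, 0.46, -0.96, 0.09 and -0.04 at 0, 5, 15, 30 and 60 min. In the wild type it lay at 0.21, 0.41, 0.24, 1.10 and 1.18 at the same times. The strains were close at 0 and 5 min, and the deletion lay about 1 log2 unit lower at 15, 30 and 60 min. The second activation step is catalysed by MET14, adenylylsulfate kinase. MET14 lay at 0.51, 0.09, -0.14, -0.18 and -0.31 at 0, 5, 15, 30 and 60 min in the deletion and at -0.22, -0.32, -0.48, -0.22 and -0.06 in the wild type. Its range over the 5 times was 0.82 in the deletion and 0.41 in the wild type, against medians of 1.04 over 5468 ORFs in the deletion and 0.86 over 5418 ORFs in the wild type, those with a value at all 5 times.

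Reduction to sulfite is carried out by MET16, phosphoadenylylsulfate reductase. MET16 lay at -0.27, -0.76, -0.29, -0.68 and -0.90 at 0, 5, 15, 30 and 60 min in the deletion. In the wild type it lay at -0.25, -0.23, -0.46, 0.14 and 0.31. The strains had nearly the same level at 0 min and lay farthest apart at 60 min, when the deletion was at its lowest and the wild type at its highest.

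MET5 and MET10 encode the beta and alpha subunits of sulfite reductase, which makes sulfide. MET5 lay at -0.09, -0.15, -0.49, -0.10 and 0.76 at 0, 5, 15, 30 and 60 min in the deletion and at 0.13, 0.38, 0.21, 0.25 and 0.52 in the wild type. MET10 lay at 0.59, -0.28, 0.86 and 0.10 at 5, 15, 30 and 60 min in the deletion and at 0.38, 0.75, 1.0, 1.06 and 0.58 at 0, 5, 15, 30 and 60 min in the wild type. Both subunits had their lowest measured value in the deletion at 15 min, and neither had its lowest value in the wild type at that time.

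Beside 14.1% of ORFs lower and 9.5% higher at 15 min, none of the 4 tested sulfate reduction genes passed against 0 min. Their estimates at 15 min lay between -0.46 ± 0.34 (SE, MET3) and -0.12 ± 0.34 (MET16), with limma adjusted p between 0.317 and 0.853. The 95% interval at 15 min reached from -1.19 to 0.28 for MET3 and from -0.80 to 0.48 for MET5. At 60 min MET5 was at 0.62 ± 0.30 against 0 min, which did not pass (limma adjusted p = 0.329). Between 15 and 60 min MET3 was at 0.93 ± 0.34 (limma adjusted p = 0.0691) and MET5 at 0.78 ± 0.30 (limma adjusted p = 0.0778), and neither passed. MET3 did pass without centring (1.02, limma adjusted p = 0.047) and without either 5 min array (0.93, limma adjusted p = 0.0307 and 0.03). MET10, fitted only when no filter on missing values was applied, was at 0.25 ± 0.42 at 15 min (limma adjusted p = 0.735).

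MET6, the cobalamin-independent methionine synthase, makes methionine from homocysteine. In the deletion MET6 lay at 1.43, 0.66, -1.61, 0.58 and 0.81 at 0, 5, 15, 30 and 60 min. In the wild type it lay at 0.44, -1.02, -0.39, 1.08 and 1.15. The dip therefore had its lowest point at 15 min in the deletion and at 5 min in the wild type. This difference in timing rests on single arrays and was not tested.

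At 15 min MET6 was at -1.93 ± 0.51 (limma adjusted p = 0.011), from -3.03 in the deletion and -0.84 in the wild type. Without the deletion array at 15 min the change was -1.10 (limma adjusted p = 0.241), without that at 0 min -1.40 (limma adjusted p = 0.156), and without both arrays titled repeat -1.44 (limma adjusted p = 0.175). At 60 min MET6 was at 0.05 ± 0.51 against 0 min. This estimate averages -0.61 in the deletion and 0.70 in the wild type. It therefore does not show a return to the 0 min level in either strain. The step from 15 to 60 min was 1.98 ± 0.51 (limma adjusted p = 0.0118). That step was 1.14 (limma adjusted p = 0.233) without the deletion array at 15 min, 2.27 (limma adjusted p = 0.0701) without the deletion array at 60 min and 1.69 (limma adjusted p = 0.156) without the wild-type array at 60 min.

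SAM1 and SAM2 encode the S-adenosylmethionine synthetases, a pair of closely similar paralogues. In the deletion SAM1 lay at 0.40, -1.40, -4.16, -1.30 and -0.55 at 0, 5, 15, 30 and 60 min. In the wild type it lay at 0.08, -2.0, -3.11, -1.33 and -0.92. All 8 heated arrays lay below both unheated arrays, and the 15 min array was the lowest in each strain.

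SAM1 was at -1.94 ± 0.36 at 5 min (limma adjusted p = 0.00354), at -3.88 ± 0.36 at 15 min (limma adjusted p = 4.24e-06) and at -1.56 ± 0.36 at 30 min (limma adjusted p = 0.00922). Its fall at 15 min was the 22nd lowest among the 5734 ORFs tested. It was -2.73 after quantile normalization (limma adjusted p = 0.000633) and -3.16 after scaling to equal median absolute deviation (limma adjusted p = 1.2e-05). Within the strains the change at 15 min was -4.57 in the deletion and -3.19 in the wild type, whose arrays do not carry the word repeat. At 60 min SAM1 was still at -0.97 ± 0.36, which did not pass (limma adjusted p = 0.207), but did after quantile normalization (-1.30, limma adjusted p = 0.0406), after scaling to equal median absolute deviation (-1.22, limma adjusted p = 0.0288) and with only the 0 and 60 min pairs (-0.97, limma adjusted p = 0.0138). The step from 15 to 60 min was 2.90 ± 0.36 (limma adjusted p = 6.73e-05), and 1.43 ± 0.37 after quantile normalization, which narrows the spread of the 15 min arrays (limma adjusted p = 0.042). Without both arrays titled repeat the fall at 5 min was -1.71 (limma adjusted p = 0.0714), and the fall at 30 min was -1.32 (limma adjusted p = 0.145). The fall at 30 min also missed the threshold with any of the 4 arrays at 0 and 30 min left out in turn.

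SAM2 lay at 0.37, 0.53, -1.22, 0.31 and 1.16 at 0, 5, 15, 30 and 60 min in the deletion. In the wild type it lay at 0.51, -0.33, -0.78, 0.48 and 1.0. It was lowest at 15 min and highest at 60 min in both strains. The change at 15 min was -1.44 ± 0.33 (limma adjusted p = 0.00412), and it was -1.13 (limma adjusted p = 0.0697) without the deletion array at 15 min and -1.32 (limma adjusted p = 0.0627) without the wild-type array at 0 min. The step from 15 to 60 min was 2.08 ± 0.33 (limma adjusted p = 0.000412), and it passed under each of the 17 alternatives in which it could be fitted. At 60 min SAM2 was at 0.64 ± 0.33 against 0 min, which did not pass (limma adjusted p = 0.36).

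**Figure D2:**
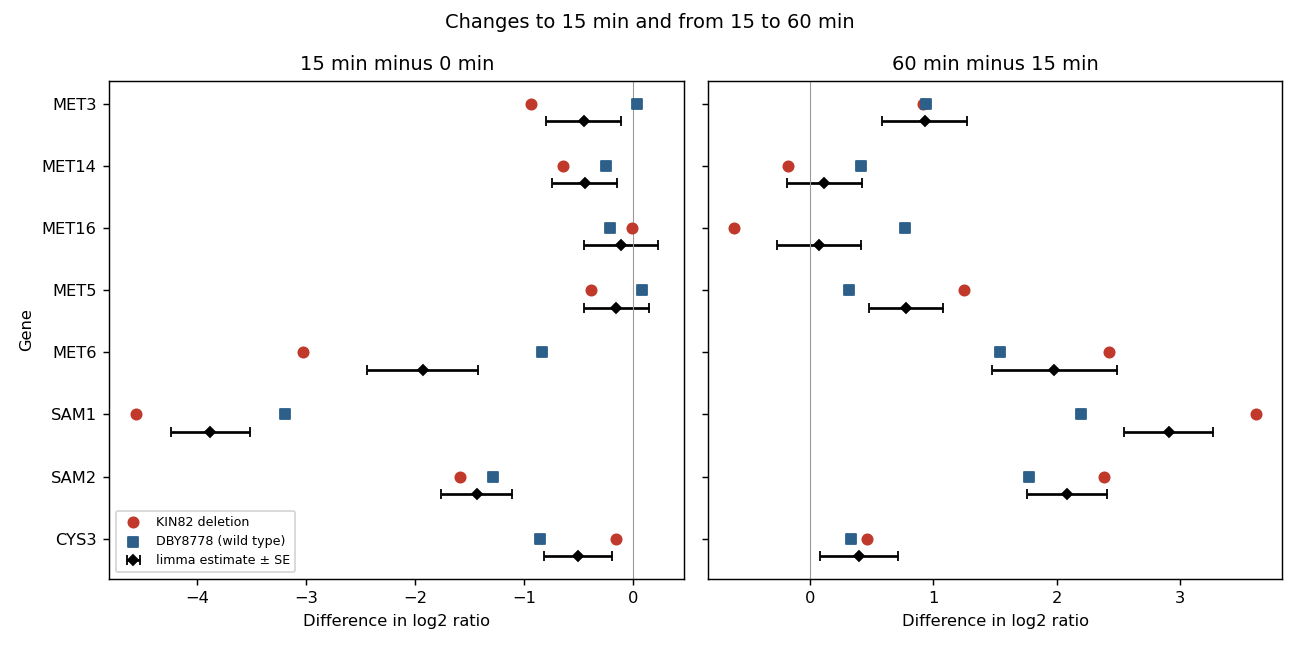
Difference in log2 ratio (horizontal axis) at 15 min against 0 min and at 60 min against 15 min for the 8 tested genes, with the value in the KIN82 deletion (circles) and the wild type (squares), 1 array per strain and time, and the limma estimate with its standard error (diamonds). SAM1, MET6 and SAM2 lie to the left of 0 in both strains at 15 min and to the right of 0 in both strains from 15 to 60 min. Both differences use the same 15 min arrays.

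The paralogues were also set against each other. SAM1 minus SAM2, taken within each array, was 0.04, -1.92, -2.94, -1.61 and -1.71 at 0, 5, 15, 30 and 60 min in the deletion and -0.43, -1.67, -2.33, -1.82 and -1.92 in the wild type. It averaged -1.99 ± 0.45 (SD, n = 8) on the heated arrays and -0.20 (n = 2) on the unheated arrays. All 8 heated arrays lay below both unheated ones. This comparison was chosen after the values were seen, so it is given as a description without a p-value. To what extent each probe also read the other paralogue was not tested, since no source here describes the probes.

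**Figure D3:**
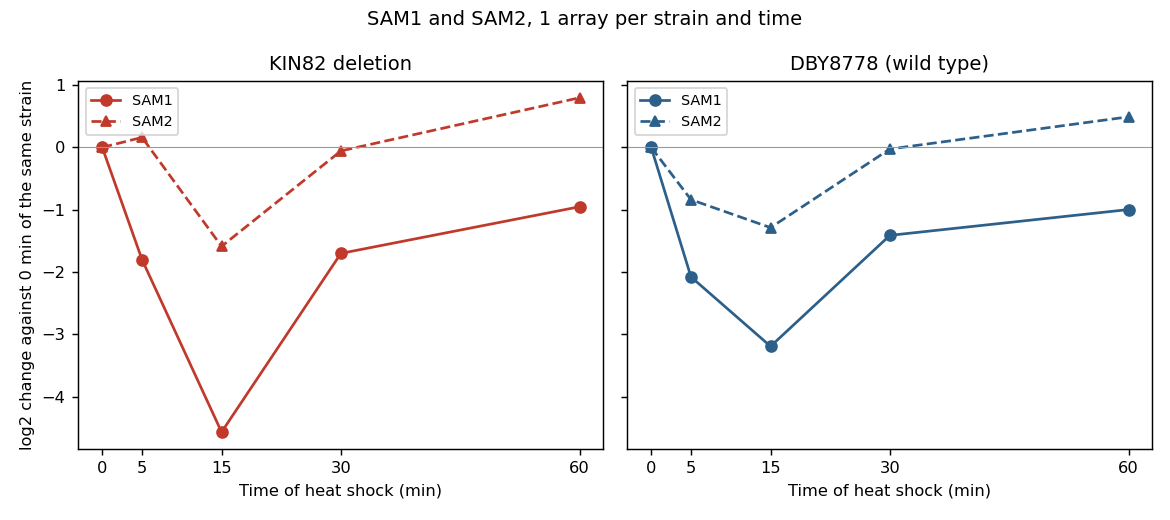
Log2 change against the 0 min array of the same strain (vertical axis) over time in minutes for SAM1 (solid line, circles) and SAM2 (dashed line, triangles), with the KIN82 deletion on the left and the wild type on the right, 1 array per point. At 60 min SAM2 lies at 0.80 in the deletion and 0.49 in the wild type, while SAM1 lies at -0.95 and -1.0.

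CYS3, cystathionine gamma-lyase, releases cysteine at the end of transsulfuration. It lay at 0.19, 0.78, 0.04, 0.51 and 0.50 at 0, 5, 15, 30 and 60 min in the deletion and at 0.62, -0.04, -0.24, 0.22 and 0.10 in the wild type. The deletion was lower than the wild type at 0 min and higher at the other 4 times. CYS3 was at -0.51 ± 0.31 at 15 min (limma adjusted p = 0.273) and passed in no comparison.

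Counted over the members, 1 of 8 was lower at 5 min (SAM1), 3 at 15 min, 1 at 30 min (SAM1) and 0 at 60 min, and 0 were higher at any time against 0 min. Over the 5734 ORFs tested, 4.76% were lower and 3.73% higher at 5 min, 14.1% lower and 9.5% higher at 15 min, 8.13% lower and 4.33% higher at 30 min, and 0.907% lower and 0.488% higher at 60 min. The counts at 5 and 30 min are 1 gene each and say nothing about the group. At an unadjusted p under 0.05, 1 of 8 members (SAM1) and 906 of the 5734 ORFs differed at 60 min. In the mean of 5 to 60 min against 0 min, SAM1 alone of the 8 passed (-2.09 ± 0.28, limma adjusted p = 0.000234), beside 10.3% of ORFs lower and 5.76% higher. From 15 to 60 min 3 members were higher and 0 lower, beside 12.1% of ORFs higher and 8.56% lower.

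The median member was at -0.48 at 15 min, with all 8 below 0, against 0.05 for all ORFs tested. From 15 to 60 min the median member was at 0.86, with all 8 above 0, against -0.03 for all ORFs tested. Both comparisons use the same 15 min arrays, so a low value on those arrays enters both and they are not separate results. These medians describe a group of 8 chosen genes and carry no test.

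The rest of the sulfur pathway was read from a list of 37 further genes, of which 35 were tested. At 15 min 10 of these 35 were lower and 0 higher, beside 14.1% lower and 9.5% higher over all ORFs tested. The genes of SAM use and recycling were lower with SAM1 and SAM2 at 15 min, though not at every time. SAH1, adenosylhomocysteine hydrolase, was at -1.68 ± 0.35 (limma adjusted p = 0.00218). It lay at 1.16, 0.81, -0.92, 0.38 and 0.50 at 0, 5, 15, 30 and 60 min in the deletion and at 0.68, -0.52, -0.59, -0.05 and -0.29 in the wild type. SAM4 and MHT1, the homocysteine methyltransferases that use SAM and S-methylmethionine, were at -1.42 ± 0.28 and -1.18 ± 0.30, and ADO1, adenosine kinase, at -1.0 ± 0.28 (limma adjusted p between 0.00132 and 0.0198). Counted with the members SAM1 and SAM2, 6 of the 6 SAM cycle genes were lower at 15 min. The count by role was chosen after seeing the data and is a description. This count was 3 of 6 without the deletion array at 15 min, 3 of 6 without the wild-type array at 0 min and 4 of 6 after quantile normalization, and all 6 estimates stayed below 0 in each.

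Of the 5 genes for uptake of methionine, SAM and related compounds, 3 fell at 15 min, beside 14.1% of ORFs lower. That count too was chosen after seeing the data. The sulfate permease SUL2 is not in this list and was at 0.70 ± 0.33 at 15 min (limma adjusted p = 0.152). MUP1, the high-affinity methionine permease, was at -1.97 ± 0.30 (limma adjusted p = 0.000163), SAM3, the SAM permease, at -1.76 ± 0.28 (limma adjusted p = 0.000265) and MMP1, the S-methylmethionine permease, at -1.41 ± 0.29 (limma adjusted p = 0.00225). MUP1 lay at 2.04, 1.15, -0.39, 1.61 and 0.92 at 0, 5, 15, 30 and 60 min in the deletion and at 0.66, 0.19, -0.85, 0.82 and 0.26 in the wild type. The changes of MUP1 and SAM3 at 15 min passed under each of the 17 alternatives. The methionine permease MUP3 (-1.06 ± 0.65) and the cysteine transporter YCT1 (-0.40 ± 0.30) did not pass at 15 min. MUP3, which lacks the wild-type value at 15 min, passed in the mean of 5 to 60 min (-1.31 ± 0.41, limma adjusted p = 0.0443), but was at -0.30 (limma adjusted p = 0.844) without the deletion array at 0 min.

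In the mean of 5 to 60 min, 8 of the 35 were lower and 1 higher, beside 10.3% of ORFs lower and 5.76% higher. These calls did not stand without the deletion array at 0 min. All but those of IRC7 and MUP3 were also lost without the wild-type array at 0 min. Leaving out either array leaves only 1 at 0 min. Other falls at 15 min were STR3, cystathionine beta-lyase (-1.59 ± 0.44), GSH1, which starts glutathione synthesis (-1.02 ± 0.30), and GCN4, the activator of amino acid synthesis genes (-0.94 ± 0.32, limma adjusted p = 0.0464). The deletion array at 0 min weighs on STR3, which was at -0.61 (limma adjusted p = 0.413) without it. GSH1 was at -0.79 without that array (limma adjusted p = 0.228), and GCN4 at -0.46 without the deletion array at 15 min (limma adjusted p = 0.463). IRC7, a beta-lyase, was lower in the mean of 5 to 60 min (-0.97 ± 0.26, limma adjusted p = 0.0196) and at -0.51 without the deletion array at 0 min (limma adjusted p = 0.554).

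SUL2, a high-affinity sulfate permease, ran the other way, at 0.86 ± 0.26 in the mean of 5 to 60 min (limma adjusted p = 0.0368), and at 0.65 (limma adjusted p = 0.461) without the wild-type array at 0 min. It lay at -0.68, 0.38, -0.14, -0.38 and 0.03 at 0, 5, 15, 30 and 60 min in the deletion and at -0.96, 0.10, -0.10, 0.60 and -0.18 in the wild type, so that every heated array lay above both unheated ones. From 15 to 60 min 5 of the 35 further genes were higher and 0 lower, beside 12.1% of ORFs higher and 8.56% lower, and the count of higher genes is near that share. These 5 were MUP1 (1.21 ± 0.30), SAM4 (1.09 ± 0.28), SAM3 (0.95 ± 0.28), ADO1 (0.90 ± 0.28) and MET1 (0.83 ± 0.28). After quantile normalization none of these but MUP1 passed, with SAM4 at 0.21, and each of the 5 calls was lost without the deletion array at 15 min.

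Of 6 tested regulators, 1 passed at 15 min (GCN4, lower), beside 14.1% of ORFs lower and 9.5% higher. MET4, MET28, MET32, CBF1 and MET30 passed in no comparison. The estimates of these 5 at 15 min lay between -0.18 ± 0.29 (MET32) and 0.42 ± 0.34 (MET28). The 4 genes of the homoserine branch, which supplies the carbon chain (HOM3, HOM2, HOM6 and MET2), lay between -0.72 ± 0.30 (HOM2) and 0.10 ± 0.30 (HOM6) at 15 min, and 0 of them passed. With so few genes, neither count departs clearly from the shares over all ORFs.

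**Figure D4:**
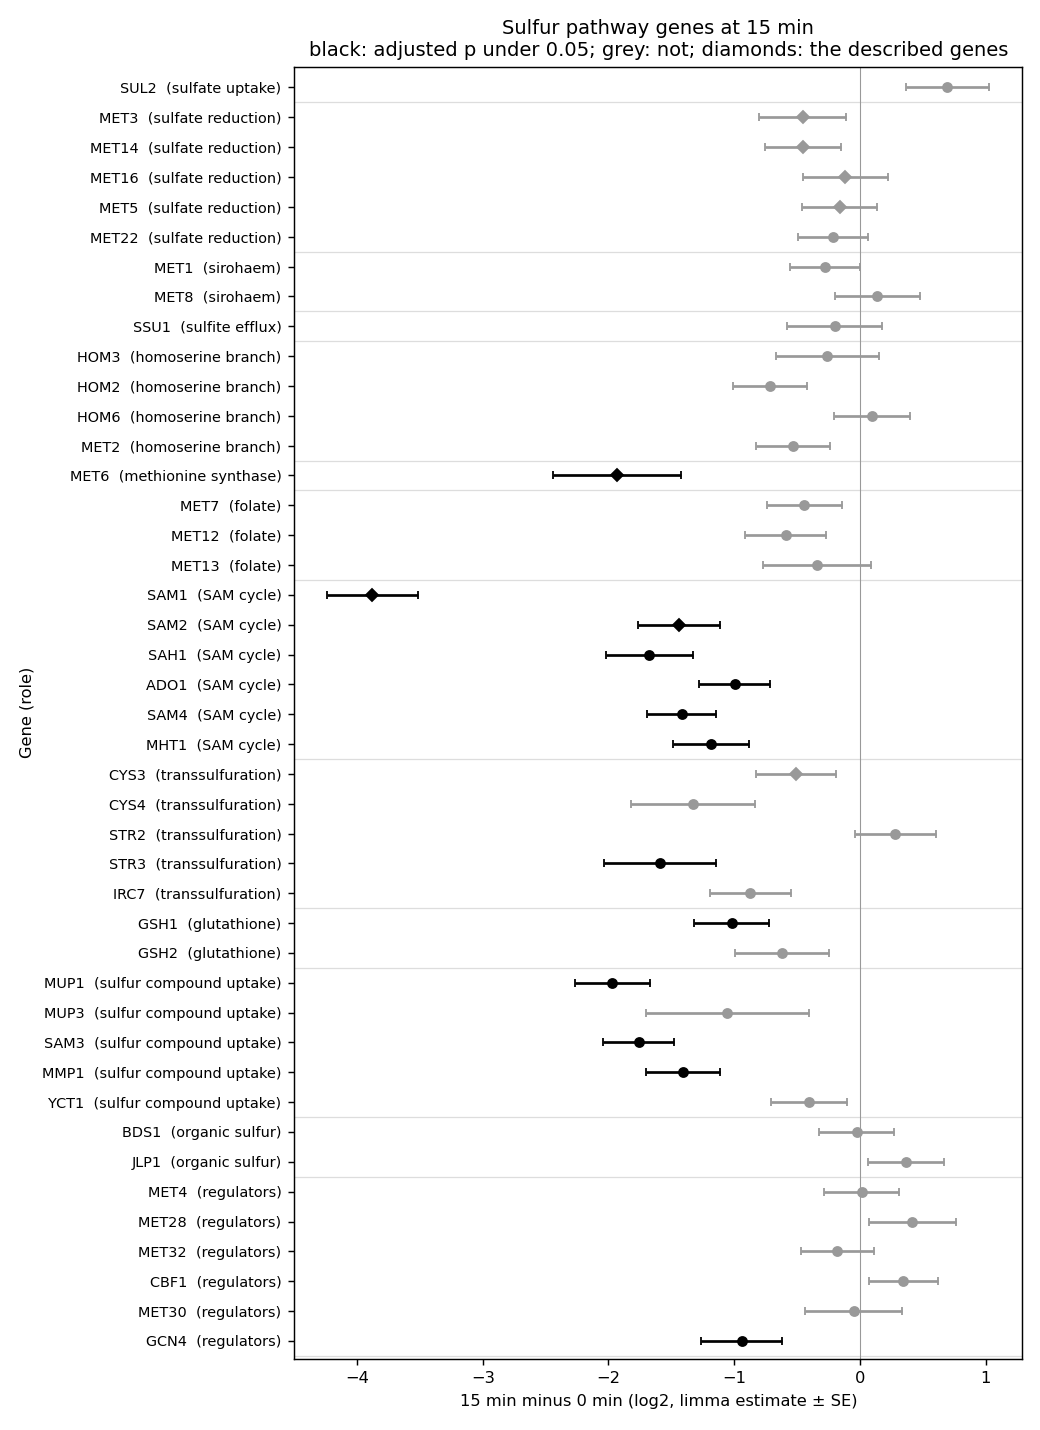
Limma estimate of the change at 15 min against 0 min (log2, horizontal axis, bars are standard errors) for the tested genes of the sulfur pathway, grouped by role from top to bottom, with diamonds for the 8 members and circles for the 35 further genes, and black for those with an adjusted p under 0.05. The 6 genes of the SAM cycle are all black and to the left of 0, and SAM1 at -3.88 is the lowest of all genes shown.

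The strains were compared as KIN82 deletion minus wild type over the 5 times. Of the 8 members, 1 was lower in the deletion and 0 were higher, beside 5.35% of ORFs lower and 6.59% higher. A count of 1 gene says nothing about the group. MET3 was at -0.72 ± 0.22 (limma adjusted p = 0.0444) and was lower in the deletion at 4 of 5 times. Its difference was -0.23, 0.04, -1.20, -1.01 and -1.22 at 0, 5, 15, 30 and 60 min. Each of these values rests on 1 pair of arrays, and whether the difference changed between single times was not tested. The strain by heat term of MET3 was -0.62 ± 0.56 (limma adjusted p = 0.999). The call stood close to the threshold, and 8 of 20 alternatives kept it, with limma adjusted p between 0.0136 and 0.302.

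MET16 was at -0.48 ± 0.21 (limma adjusted p = 0.158), MET5 at -0.31 ± 0.19 (limma adjusted p = 0.305) and MET10, fitted without the filter on missing values, at -0.53 ± 0.23 over 4 pairs (limma adjusted p = 0.154). MET10 was lower in the deletion at all 4 measured times, and MET16 and MET5 at 4 of 5. None of these 3 passed. MET14 was at 0.26 ± 0.19 and CYS3 at 0.27 ± 0.20, with the deletion higher at 4 of 5 times for each (limma adjusted p = 0.41 and 0.401). MET6, SAM1 and SAM2 were at 0.12 ± 0.32, 0.06 ± 0.23 and 0.05 ± 0.21. The 95% interval of the difference reached from -0.43 to 0.54 for SAM1 and from -0.56 to 0.81 for MET6, so a difference of up to these bounds in either direction is compatible with the arrays.

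**Figure D5:**
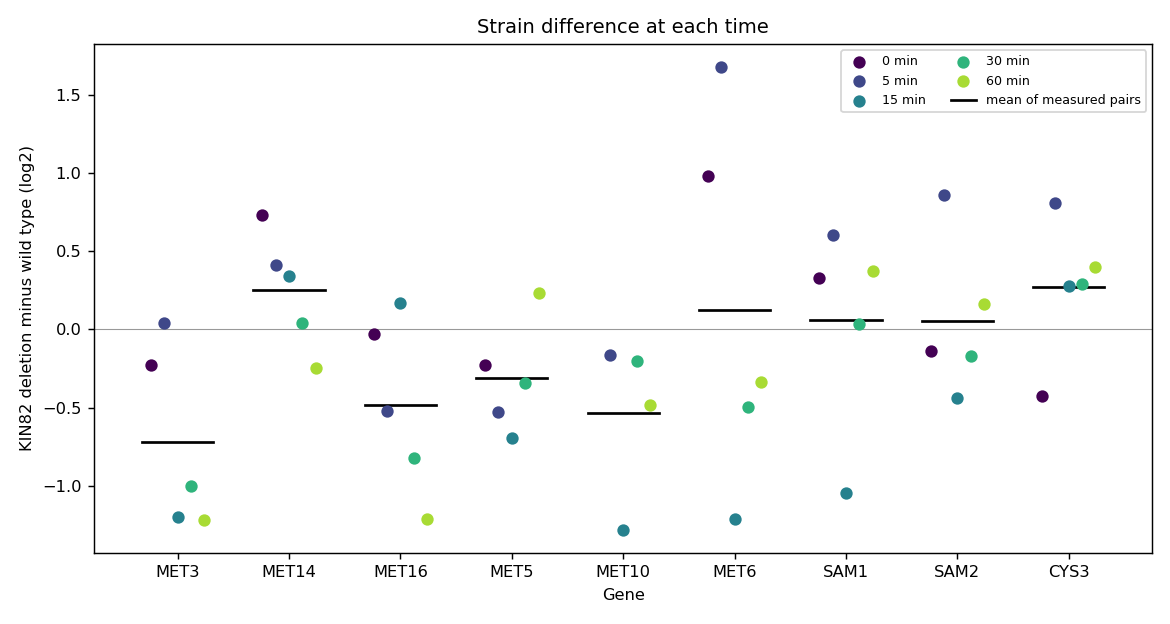
KIN82 deletion minus wild type (log2, vertical axis) for the 9 measured genes, with 1 point per time from 0 to 60 min and a bar at the mean over the measured pairs, 5 for each gene but MET10, which has 4. MET3 lies near or below -1 at 15, 30 and 60 min, and the points of MET6 spread from -1.22 to 1.68.

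Among the 35 further genes the deletion had 3 higher and 0 lower, near the shares of 6.59% higher and 5.35% lower over all ORFs. MET1, which makes the sirohaem cofactor of sulfite reductase, was at 0.84 ± 0.18 (limma adjusted p = 0.0106), with differences of 0.59, 1.16, 0.88, 0.79 and 0.79 at 0, 5, 15, 30 and 60 min. MUP1 was at 0.85 ± 0.19 (limma adjusted p = 0.013) and MMP1 at 0.89 ± 0.19 (limma adjusted p = 0.00991). The deletion was higher at all 5 times for each of these 3 genes. The call of MUP1 was lost without either 0 min array (0.72, limma adjusted p = 0.0561), and that of MET1 without both arrays titled repeat (0.95, limma adjusted p = 0.0543). MUP1 was at 0.74 without both arrays titled repeat (limma adjusted p = 0.126). MET1 was at 0.69 with only the 0 and 60 min pairs (limma adjusted p = 0.217). MMP1 was at 0.72 with only those pairs (limma adjusted p = 0.185). Without a time term none of the 3 passed.

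Whether the heat change differed between the strains was asked with a strain by heat term, which rests on 1 pair of arrays at 0 min. None of the 8 members passed in limma, beside 0.0% of the 5734 ORFs, and 0 of 8 had an unadjusted p under 0.05, against 130 of all ORFs. The widest member estimates were -1.07 ± 0.77 for MET6 and 0.87 ± 0.49 for CYS3 (limma adjusted p = 0.999 for each). MET6 had a mean change over 5 to 60 min of -1.32 in the deletion and -0.24 in the wild type. CYS3 had one of 0.26 in the deletion and -0.61 in the wild type. For SAM1 the mean changes were -2.25 in the deletion and -1.92 in the wild type, and the 95% interval of their difference reached from -1.59 to 0.92.

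The members did not share a single profile over the 10 arrays. MET6, SAM1 and SAM2 ran together, with Pearson's r of 0.86 for MET6 and SAM2, 0.84 for SAM1 and SAM2 and 0.84 for MET6 and SAM1. Over all 28 pairs of the 8 complete members r lay between -0.47 (MET16 and CYS3) and 0.86, with a median of 0.39. All points share a channel named reference and the arrays, and these values are descriptions.

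Among the 10 ORFs outside the group whose values most resembled the members' median profile over the 10 arrays were PSA1 (r = 0.94), RNH70 (0.92), MKC7 (0.91), SFG1, PGA3, ERG13, SRO9, CBF5 and SER33 (r between 0.89 and 0.90 for the last 6), out of 5170 complete ORFs. PSA1 makes GDP-mannose for glycosylation, ERG13 is hydroxymethylglutaryl-CoA synthase of sterol synthesis and SER33 begins serine synthesis. SAM1 taken alone was most like BMS1 (r = 0.98), a ribosome assembly factor, RPA135 (0.97), a subunit of RNA polymerase I, and ZRC1 (0.97), a vacuolar zinc transporter. SAM2 was most like PSA1 (r = 0.96), and MET6 most like SER33 (r = 0.93).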

How the data were processed

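The deposited values, per the labels from arrays with 2 channels, were log ratios, and were read as log2 ratios. Scanner, dyes, background correction and normalization are not stated in the labels. Each array was centred on its median. ORFs with a value on both 0 min arrays, on at least 8 of 10 arrays and for every model term entered limma 3.58.1 (R 4.3.3) under a model of strain plus 5 time levels. It leaves 4 residual degrees of freedom, and the prior contributes 11.0 more. A strain by heat term gave the difference in response. Adjusted p follow Benjamini and Hochberg over all 5734 ORFs. The fit was tested on simulated data. The ratio's direction was taken from a chaperone list, of which at least 80% had to be higher at 15 min in each strain.

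The members and lists were chosen with earlier results of these data known. All members were named, of the further genes those that passed (at most 15), and the 10 most like ORFs, of which 1 is not reported here. Symbols follow RefSeq assembly R64. The labels do not say whether samples came from separate cultures. The number of arrays limits the precision. Alternatives covered scaling, the filter, the prior and the arrays used. Promoter and protein sequences were not used here.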

Additional observations from a re-analysis of the deposited data

How the results depend on the processing

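Counts of called members are given as main against alternative. For the strain difference, 1 member was called, and 0 without centring, after quantile normalization, without both arrays titled repeat, with only the 5, 15 and 30 min pairs, with only the 0 and 60 min pairs and with no time term, and 0 to 1 with an array left out. At 5 min it was 1, 0 without both arrays titled repeat and 1 to 2 with an array left out. At 15 min it was 3, and 1 to 3 with an array left out. At 30 min it was 1, 0 without both arrays titled repeat and 0 to 1 with an array left out. At 60 min it was 0, and 1 after quantile normalization, after scaling to equal median absolute deviation and with only the 0 and 60 min pairs. In the mean of 5 to 60 min it was 1, and 1 to 2 with an array left out. SAM cycle genes lower at 15 min were 6, and 3 to 6 with an array left out. The cause of these shifts was not tested. No called value changed sign. The time term of the model already compares the strains within each time, and without it the ORFs called between strains were 1 against 685. No paired analysis by replicate number was made, since each strain and time has 1 array. Uncentred arrays moved the median of all ORFs by less than 0.1 in each comparison. The list counts by role were chosen after seeing the data.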
